A study of Caenorhabditis elegans with 6 samples.

Results

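The genes described are 132 protein-coding and other loci that the authors' deposited table lists only by a sequence name such as R193.2, and whose RNA was lower in sterile C. elegans adults with a daf-2 mutation. They were chosen by the readout: an RPKM of at least 5 in mes-1 worms, an RPKM at least 3-fold lower in daf-2; mes-1 worms after 1 was added to both values, and a mean normalized count of at least 10 over all 6 samples. RPKM is the number of reads per kilobase of transcript, scaled to sequencing depth, so it may be compared between genes of different length. The table lists 20422 genes, of which 11975 have no name beyond the sequence name, and 3695 of these pass the minimums on RPKM and mean. The members are 3.57% of those 3695. The levels and folds of the members are therefore a description of what the rule picked, with no test.

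Both genotypes are labelled as whole sterile adults, collected as 3 samples each. The mes-1 group, strain SS0415, carried mes-1(bn84ts) on chromosome X, a temperature-sensitive allele whose offspring at the restrictive temperature often lack germ cells. The daf-2; mes-1 group, strain SS1224, termed the double mutant, carried the same allele and daf-2(e1370) on chromosome III. Embryos of both strains developed at 24°C, larvae were held at 15°C from day 1, and worms were returned to 24°C on day 5 and picked on day 6, with 100 worms per sample. Because mes-1(bn84ts) is in both groups, no group is a control with a normal germline, and sterile worms were selected by eye. The labels number the samples but do not say that they came from separate cultures, and the p-values thus cover only the spread among these samples, which may be technical.

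DAF-2 is the insulin and IGF-1 receptor of the worm. When its signalling is low, the transcription factor DAF-16/FOXO enters nuclei, and many stress and metabolic genes rise while another large group of genes falls. The intestine is the main organ of digestion, fat storage and defence against swallowed microbes in this animal, and many genes that respond to DAF-2 are expressed there.

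The table holds 1 value per genotype and no value for a single sample, so most members can be given only as the authors' Cuffdiff2 RPKM for each genotype. The mean column has enough digits that, for genes with few reads, the whole number of reads in each library could be worked out. The recovered size factors were 1.79, 0.859 and 0.826 for the mes-1 libraries and 1.38, 1.07 and 0.584 for the double-mutant libraries, so the deepest library was 3.06 times as deep as the shallowest. The total number of reads per library is unknown. Libraries are called deepest, middle and shallowest within their genotype, since their replicate numbers cannot be told. The deepest mes-1 library stood apart. Of 1484 genes with a mean of 5 to 10 whose reads were recovered, none had over 80% of all normalized reads in any other library. In the deepest mes-1 library 8 genes had that share, and 7 of these have no adjusted p. The germline gene nos-2, which acts in primordial germ cells, had 25.2 normalized reads there, against 3.49 and 4.84 in the other mes-1 libraries and 2.17, 0 and 0 in the double-mutant libraries. Of the other germline markers whose reads were recovered, nos-1 had 5.04 there and 0 in both other mes-1 libraries, while the sperm-supplied gene spe-11 had 1.12 there and 3.49 and 2.42 in the others. Oocyte genes were also detected in the mes-1 worms. In the authors' deposited table, cbd-1 had 15.3 RPKM in mes-1, puf-5 7.77 and rme-2 6.6, against 2.70, 1.12 and 0.975 in the double mutant. RNA of germline genes was thus present in worms labelled as sterile. These oocyte genes have no adjusted p, although their means of 102, 23.2 and 28.7 exceed the lowest mean with an adjusted p, 5.75. Their reads per library were not recovered, so whether their level rests on the deepest mes-1 library was not tested. The part of that library in the members whose reads were not recovered was not tested.

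The members were expressed at a wide range of levels in mes-1 worms and were mostly low in double-mutant worms. In the authors' deposited table their median RPKM was 51.0 in mes-1 and 8.67 in the double mutant, and the median fold between the genotypes was 4.56. An RPKM of at least 100 was reached by 47 members in mes-1 worms and by 14 in double-mutant worms, and 6 members had 1250.1 RPKM or more in mes-1. RPKM was at least 10-fold lower in 23 members and at least 5-fold lower in 56, while 51 members lay below 4-fold. Summed over the members, RPKM went from 2.90% of the total over all genes in mes-1 to 0.512% in the double mutant. These are whole worms, so fewer cells of a type and less RNA per cell cannot be told apart.

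**Figure D1:**
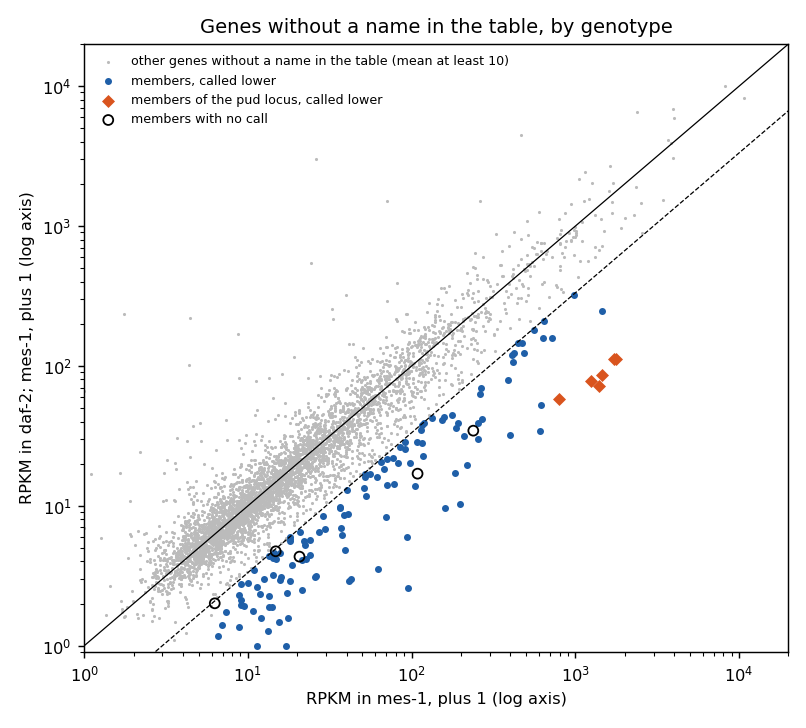
RPKM plus 1 in mes-1 worms (horizontal, log axis) against RPKM plus 1 in double-mutant worms (vertical, log axis) for genes without a name in the authors' deposited table and a mean of at least 10, with the 132 members in colour, the pud genes as diamonds and members without a call as open circles. The solid line marks equal values and the dashed line a 3-fold difference, on or below which the rule placed all members. The pud diamonds lie at the right, between 791 and 1769 RPKM in mes-1, below the other members in that range.

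Of the 131 members with an adjusted p, 127 were called lower by DESeq2 in the authors' deposited table at an adjusted p under 0.05, and none higher. The same call was made for 6.35% of all 9820 genes with an adjusted p and for 6.88% of the 5230 unnamed ones, and 3.92% of all genes were called higher. At an adjusted p under 0.01, DESeq2 called 120 members lower in the authors' deposited table, and 4.8% of all genes. Nothing can be read from these differences, because the rule used the same contrast. The median log2 fold change of the members, daf-2; mes-1 over mes-1, was -2.09, with a range from -4.48 to -0.39, against -0.03 over all genes that have an adjusted p. The adjusted p and the fold change together imply a standard error, which is an upper bound. Its median was 0.40 on the log2 scale over 121 members and its range was 0.21 to 0.63. Members with a mean under 20, of which there were 30, had a median implied standard error of 0.54. Among 44 members with a mean of at least 100 and an implied standard error the median was 0.30, and 6 of them exceeded 0.6.

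No call was made for 5 members. M199.9 had an RPKM of 237 in mes-1 and 33.4 in the double mutant, but its DESeq2 log2 fold change in the authors' deposited table was only -1.18, with an implied standard error of 0.63 and an adjusted p of 0.318. B0024.4 went from 108 to 16.0 RPKM, with a deposited DESeq2 log2 fold change of -1.39, an implied standard error of 0.63 and an adjusted p of 0.187. Neither B0507.8 (19.6 and 3.33 RPKM, DESeq2 adjusted p 0.363) nor C36C5.12 (13.8 and 3.73 RPKM, DESeq2 adjusted p 0.0647) was called in the authors' deposited table. The fifth member without a call, gfat-2, has no adjusted p at all. It encodes a glutamine-fructose-6-phosphate aminotransferase, and its log2 fold change of -0.39 in the authors' deposited table contrasts with RPKM values of 5.27 and 1.01. The reads per library of gfat-2 were not recovered, so whether its mes-1 level rests on a single library was not tested. Over all 132 members, 98 had a log2 fold change nearer 0 than the log2 of their RPKM ratio, and in 10 the 2 measures differed by more than 1.

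The thresholds cut through a continuous range of values. K09C6.9, ZK813.2 and C18H9.6 lay just inside the limit on the fold, at 3.02, 3.02 and 3.04 in the authors' deposited table. F52E1.14, Y73C8B.1 and R160.3 lay just outside it, at 2.97, 2.96 and 2.94. On RPKM in mes-1, gfat-2 (5.27), T05C3.6 (5.52) and C29F7.1 (5.93) were inside and ceh-99 (4.95), T20D4.3 (4.94) and R03G8.6 (3.18) outside. On the mean normalized count, C29F7.1 (10.1), F14H3.12 (10.7) and T20D4.4 (10.9) were inside and W05F2.3 (9.85), chil-23 (9.62) and W06G6.17 (9.31) outside.

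Reads in each library could be recovered for 11 of the 40 members with a mean under 30. In all 11, every double-mutant library lay below every mes-1 library. Low double-mutant reads were largely fixed in advance, since the members were chosen for their RPKM ratio and a recovered solution had to match that ratio within a factor of 2. The separation is therefore a description only, as is the 9.77% of 1484 recovered genes with a mean of 5 to 10, not chosen for a difference, that separated in this direction. What the reads add is the spread among the libraries of a genotype. The 11 members had at least 64 reads each in mes-1 and 0 to 13 in the double mutant. Their lowest mes-1 library held 10.9 normalized reads and their highest double-mutant library 7.23.

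C40H1.7 and drd-50 had no read at all in double-mutant worms. For C40H1.7 the normalized reads were 43.1, 23.3 and 23 in the deepest, middle and shallowest mes-1 libraries, from 116 reads, and 0 in each double-mutant library. With a floor of 3 reads over the group, the level was at least 33.8-fold lower in the double mutant. For drd-50, named for genes down-regulated under dietary restriction, the mes-1 libraries held 42.5, 23.3 and 31.5 normalized reads, against 0 in each double-mutant library, at least 35.6-fold lower with the same floor. All mes-1 libraries of these genes were high, and the deepest one was the highest. The floor covers counting error only.

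The other recovered members had a few reads in the double mutant. F19C7.4 had the most even mes-1 libraries, at 32.5, 33.8 and 35.1 normalized reads, against 0.723, 3.74 and 0. R09E12.9 had the least even ones, at 14.6, 53.6 and 27.8, against 0, 2.81 and 1.71. In R09E12.9 it was the middle library, not the deepest, that stood highest. F10C1.8 had 25.8, 37.3 and 16.9 normalized reads in mes-1 and 2.17, 1.87 and 1.71 in the double mutant. F53F1.4 had 19.6, 28.0 and 23 against 0.723, 1.87 and 3.42. T05C3.6 had 16.8, 18.6 and 31.5 against 0, 1.87 and 0. The highest mes-1 library of these 3 genes was the middle or the shallowest. F49F1.7 had 33.6, 22.1 and 10.9 against 1.45, 0 and 0. For C17H12.6, the middle mes-1 library was again the highest, with 18.5, 31.4 and 14.5 against 0, 0 and 3.42. Its daf-2 reads were all in the shallowest library. C29F7.1 had 17.4, 12.8 and 26.6 against 2.17, 0 and 1.71. T20D4.4 came closest to an overlap, with 24.6, 15.1 and 14.5 in mes-1 and 7.23, 1.87 and 1.71 in the double mutant. No single mes-1 library was the highest in all 11 members.

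**Figure D2:**
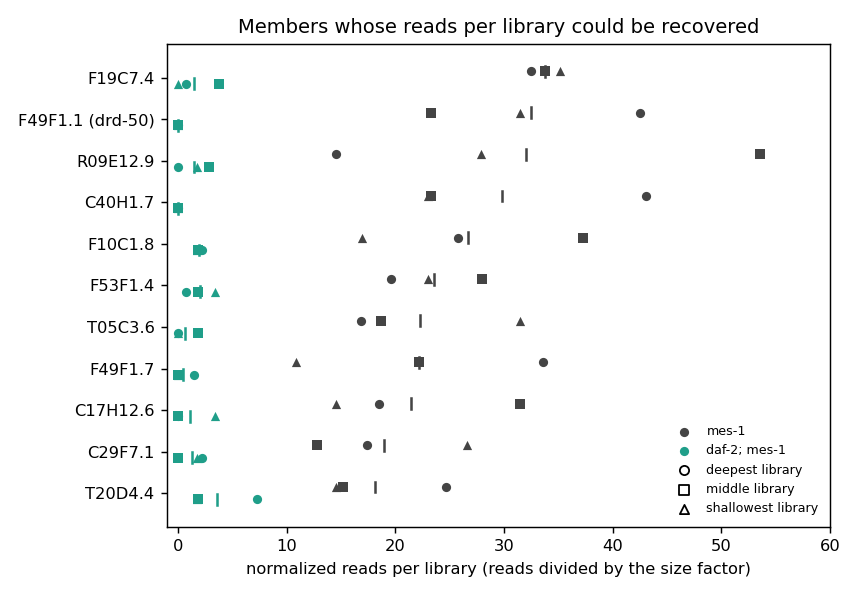
Normalized reads per library (horizontal) of the 11 members whose reads were recovered, with 1 point for each of the 3 mes-1 (dark) and 3 daf-2; mes-1 (green) libraries, a symbol shape for the library's depth rank and a bar at each genotype's mean. Every mes-1 point is at 10.9 or above and every double-mutant point at 7.23 or below.

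Several of the members with the highest RPKM in mes-1 form 1 cluster on chromosome V, the pud genes. Members elsewhere reached similar levels in mes-1, with sysm-1 on chromosome II at 1446 RPKM and ZK813.2 on X at 972. The name pud stands for protein up-regulated in daf-2, after proteins found at higher levels in daf-2 mutants. Here their RNA was lower in the daf-2 genotype. The cluster holds 6 neighbouring genes within 8893 bases, from 2322037 to 2330929 in the coordinates of the authors' deposited table, whose genome build the sources used here do not name. No other gene of the table lies between them.

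The 6 genes fell by similar factors. In the authors' deposited table, pud-1.2 (Y19D10B.7) had an RPKM of 1451 in mes-1 and 85.3 in the double mutant, and pud-1.1 (F15E11.13) 1390.2 and 70.3. The second pair, pud-2.2 (F15E11.14) and pud-2.1 (F15E11.1), had 1715 and 1769 in mes-1 and 110.4 and 110.5 in the double mutant. Between the pairs, pud-3 (F15E11.15) went from 1250.1 to 77.1 RPKM and pud-4 (F15E11.12) from 791 to 57.1. The folds ranged from 13.6 for pud-4 to 19.5 for pud-1.1. Summed, the cluster held 33.4% of the RPKM of all members in mes-1 and 12.6% in the double mutant, and its sum was 16.4-fold lower. Without the cluster, the summed RPKM of the remaining members was 4.70-fold lower, against 6.17-fold with it.

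The error of these values was large for 5 of the 6 genes. The DESeq2 log2 fold change of pud-4 in the authors' deposited table was -3.57, with an implied standard error of 0.37 and an adjusted p of 5.94e-20. For the others the deposited DESeq2 log2 fold changes lay between -2.63 for pud-1.1 and -2.34 for pud-2.1, with implied standard errors of 0.60 to 0.62 and adjusted p from 2.99e-04 to 0.00239. These 5 are among the 6 members with a mean of at least 100 and an implied standard error above 0.6. The copies pud-1.1 and pud-1.2, and pud-2.1 and pud-2.2, are nearly identical, so the authors' counting could split or share their reads. The spans of pud-3 and pud-4 overlap on opposite strands, and the library kit does not mark strand, so some reads of one may be counted for the other.

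The genes on either side were barely expressed. Y19D10B.6, on the left, had an RPKM of 1.59 in mes-1 and 1.67 in the double mutant, with a DESeq2 log2 fold change of 0.03 and an adjusted p of 0.994 in the authors' deposited table. On the right, irld-32 (F15E11.11) was at 0.334 and 0.486 RPKM and has no adjusted p.

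**Figure D3:**
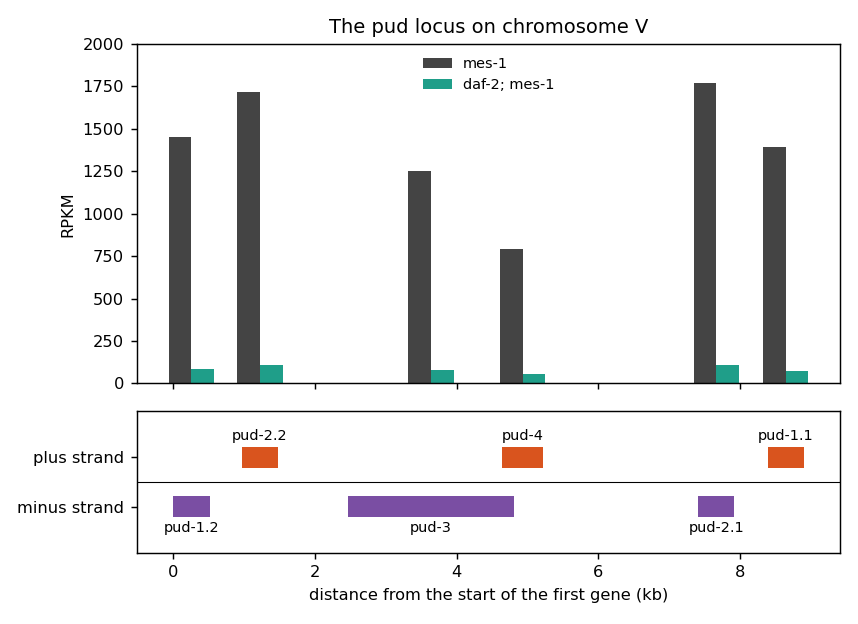
Upper panel, RPKM (linear axis from 0) of the 6 pud genes in mes-1 (dark bars) and daf-2; mes-1 worms (green bars), from the authors' deposited table; lower panel, the genes to scale by strand, at their distance in kilobases from the start of the first gene. All 6 genes lie between 791 and 1769 RPKM in mes-1 and between 57.1 and 110.5 in the double mutant, and the pud-3 and pud-4 spans overlap.

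Altogether 19 members (14.4%) lay next to another member, in 7 runs. The same held for 15 of the 63 raised unnamed genes (23.8%) and 11 of the 130 named lowered genes (8.46%), with no test of the difference. A second run of at least 3 was found on chromosome IV, where chca-1 (F58G6.9), F58G6.3 and F58G6.7 had 51.0, 81.6 and 60.8 RPKM in mes-1 and 15.8, 19.4 and 15.1 in the double mutant. In the authors' deposited table, the DESeq2 adjusted p were 0.00864, 3.64e-05 and 2.37e-05. The 5 remaining runs are pairs. In 3 of these, F19C7.2 with F19C7.4, ZK896.5 with ZK896.4, and nspg-14 with nspg-13, the proteins differ in length by less than 10 residues. Next to each other on chromosome X are hrg-11.2 (F28B4.3), which went from 252 to 38.4 RPKM, and irg-7 (F40F4.6), which went from 448 to 146; their proteins of 2229 and 2217 residues are the longest among the members.

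Neighbours that are not members were also lower at times. Of 116 such neighbours with an adjusted p, 25 (21.6%) were called lower and 3 higher by DESeq2 in the authors' deposited table. Over all genes with an adjusted p, 6.35% were called lower. Some of the neighbours called lower, such as T20D4.3 and chil-23, met the limit on the fold and missed only a minimum of the rule. The share called lower was 16.2% of 111 neighbours of the named genes lowered under the same thresholds and 5.66% of 53 neighbours of the unnamed genes raised under the mirrored rule. Some of these neighbours belong to the same gene family as the member beside them. Thus acox-1 lies beside acox-1.2, gba-1 beside gba-2, and chil-23 beside chil-22, for which the authors' deposited table gives DESeq2 log2 fold changes of -1.73, -1.31 and -2.0. Others share no part of a symbol with that member, such as ifb-2, an intermediate filament protein of the intestine (-3.49, next to F10C1.8), and gfi-1 (-3.38, next to bcf-1). Family was judged by symbol only. The proteins were not compared, so whether gfi-1 and bcf-1 are related was not tested.

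Although the table gives them no name, 46 of the 132 members have a symbol today in the gene tables of the WBcel235 annotation, matched by gene ID or locus tag for 129 members. Members with a symbol were more abundant in mes-1, with a median RPKM of 110.3 against 37.1 for the 86 without. From these symbols 32 members were placed in 5 groups by gene product. The groups were formed after the values had been seen. The rule chose members for being lower, and 127 of the 131 with an adjusted p were called lower, against 6.35% of all genes. The counts of calls given for the groups therefore describe only that choice and say nothing about a kind of gene product.

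The infection response and defence group has 7 members, and all 7 were called lower by DESeq2 in the authors' deposited table, at a median fold of 5.90. The largest fall was in irg-8 (ZK6.11), an infection response gene, which went from 603 to 33.5 RPKM, a log2 fold change of -4.02 with the DESeq2 adjusted p at its limit of 1e-20 in the authors' deposited table. Similarly large was that of bcf-1 (F57F4.4), named for bacterial colonization, from 396 to 30.9 RPKM, -3.46 on the log2 scale. The C-type lectin clec-209 (F56A4.2) went from 614 to 51.4 RPKM. Also in the group are known reporters of the p38 MAP kinase PMK-1 pathway of innate immunity. Among them, sysm-1 (T24B8.5) went from 1446 to 244 RPKM, irg-4 (F08G5.6) from 22.98 to 4.74, and irg-5 (F35E12.5) from 8.08 to 1.11, with DESeq2 adjusted p of 1.02e-13, 1.21e-04 and 0.00429 in the authors' deposited table. Smallest in the group was the fold of irg-7, at 3.06.

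In the peptidase group, 7 of 7 were called lower by DESeq2 in the authors' deposited table, at a median fold of 5.18. They include the aspartyl protease asp-17 (Y39B6A.24), which went from 91.9 to 4.97 RPKM, the metallopeptidases of the neprilysin family nep-22 (T25B6.2; 17.1 to 1.91) and nep-17 (F54F11.2; 184 to 34.7), and the leukotriene A4 hydrolase homologue ltah-1.2 (ZC416.6; 36.2 to 5.93). The most abundant was hrg-7 (C15C8.3), a secreted aspartic peptidase-like protein that signals heme status between tissues, at 716 and 158 RPKM. The cathepsin A homologues ctsa-3.1 and ctsa-1.2 went from 28.5 to 5.88 and from 471 to 146 RPKM.

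Enzymes of lipid and sugar metabolism form a group of 8, of which 7 were called lower by DESeq2 in the authors' deposited table, at a median fold of 3.56. The largest fold, 11.1, was that of the glucocerebrosidase homologue gba-2 (C33C12.8), at 16.6 RPKM in mes-1 and 0.579 in the double mutant. It was followed by the peroxisomal acyl-CoA oxidase acox-1.2 (F08A8.2), which went from 68.7 to 7.25 RPKM. The klotho homologue klo-2, the phosphoglycolate phosphatase homologue pgph-3, the chitinase-like chil-22, the acid ceramidase homologue asah-2 and cest-15, named after carboxylesterases, had folds between 3.18 and 4.91. The WBcel235 annotation lists cest-15 (W02B12.4) as a pseudogene with no protein. The eighth, gfat-2, is the member without an adjusted p.

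A group of 4 nematode-specific or neuropeptide-like genes was, in all 4 cases, called lower by DESeq2 in the authors' deposited table. The nematode-specific peptide genes nspg-9, nspg-13 and nspg-14 were abundant in mes-1, at 561, 387 and 415 RPKM, and stood at 179, 78.4 and 106 in the double mutant. The neuropeptide-like gene nlp-59 went from 76.7 to 13.3.

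**Figure D4:**
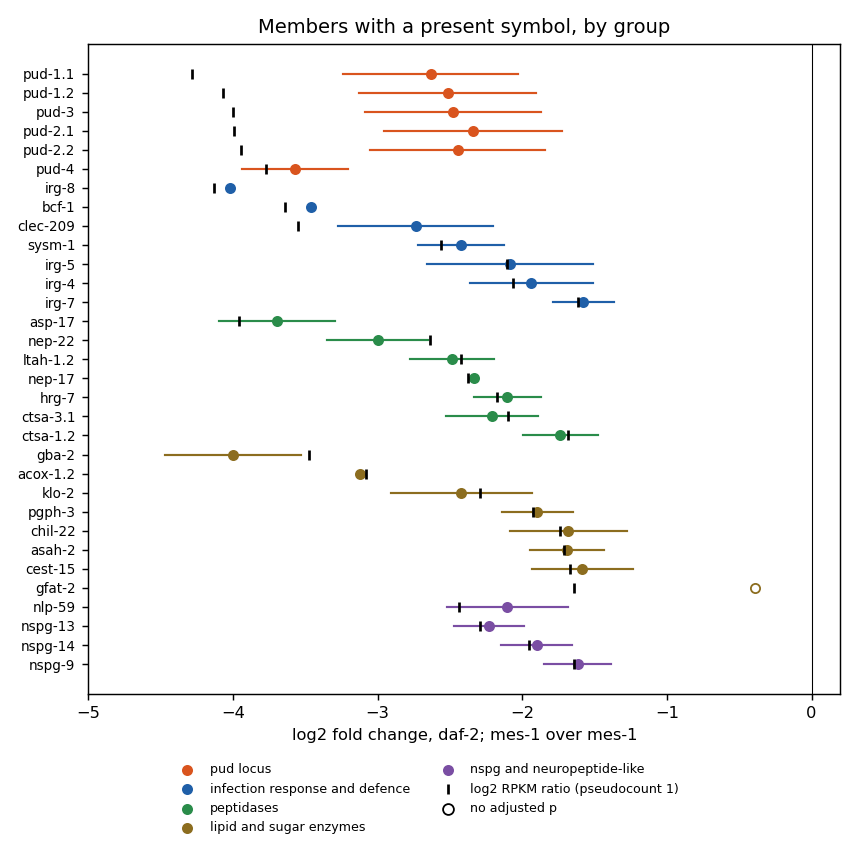
Deposited DESeq2 log2 fold changes, daf-2; mes-1 over mes-1 (horizontal), of the 32 members in 5 product groups, with lines of 1 implied standard error on each side and black ticks at the log2 RPKM ratio with a pseudocount of 1. Genes at the limit of the adjusted p and gfat-2 (open circle, no adjusted p) have no line; for 5 pud genes the tick lies more than 1 below the point, and all 32 values are below 0.

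Other genes in the table, named and unnamed, share the first part of their symbol with these genes. Such a set need not be a family of related proteins, since irg and drd, for example, name a response. In the following counts, over genes of such a set with an adjusted p, calls are those of DESeq2 in the authors' deposited table. Leaving out the members, which the rule chose for being lower, 1 of 2 irg genes was lower, 3 of 4 ctsa genes, 4 of 6 nspg genes, 2 of 3 gba genes, 2 of 2 drd genes and 3 of 8 hrg genes, with none higher. Among the asp genes that are not members, 6 of 11 were lower and 1, asp-9, higher. None of the 7 nep genes outside the members was lower, and neither was the other asah gene. The share called lower over all genes was 6.35%, and the sets are small and were picked after the members were known.

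A further 14 members have a symbol but were placed in none of the groups, which need not hold every member of their kind. The largest fold after drd-50 was that of mfsd-8.1 (ZK550.2), 38.0 and 3.81 RPKM, whose name marks a major facilitator superfamily domain. The gene hrg-11.3 (T25C12.3), at 268 and 40.6 RPKM, had a fold of 6.45, close to the 6.43 of hrg-11.2, although they lie far apart on chromosome X. The nucleoside transporter homologue ent-4 went from 17.7 to 2.75 RPKM, and the most abundant of the 14, ule-2 (F13G11.3), from 641 to 208.9.

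The remaining 86 members have only an ID, and no role is given for them here. C32H11.4 had the largest RPKM fold with 1 added to both values, 36.2, with 93.3 RPKM in mes-1 and 1.61 in the double mutant and a DESeq2 log2 fold change of -3.93 in the authors' deposited table (implied standard error 0.58, adjusted p 7.25e-10). The recovered reads of drd-50 and C40H1.7, both at 0 in the double mutant, set only lower bounds for their folds, so they cannot be ranked against it. R193.2 had the lowest log2 fold change, -4.48, with its DESeq2 adjusted p at the limit of 1e-20 in the authors' deposited table; it went from 61.5 to 2.52 RPKM. It is a long gene on chromosome X, from 1132996 to 1148340 in the table's coordinates, with 37 exons and 1897 residues in the WBcel235 annotation. Other members without a symbol and with large RPKM folds were Y39B6A.1 (195 to 9.38 RPKM, 18.9-fold), F28H7.3 (158 to 8.70, 16.4-fold) and Y48E1B.8 (41.7 to 2.00, 14.2-fold). C29F3.7 (215 and 18.5 RPKM) and K11D12.13 (182 and 16.0 RPKM) were also at the limit of the DESeq2 adjusted p in the authors' deposited table.

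The most abundant members without a symbol had much smaller folds. ZK813.2 had 972 RPKM in mes-1 and 321 in the double mutant, a fold of 3.02 that is next to the threshold. K12H4.7 went from 635 to 159 RPKM, W02D9.7 from 487 to 123, M02H5.8 from 419 to 123 and F15E6.3 from 409 to 119.1. These 5 genes kept over 100 RPKM in the daf-2 genotype and are the only members without a symbol to do so.

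The share of lowered genes was close between named and unnamed genes. Under the same thresholds, 130 of 3492 named genes (3.72%) were lower, against 3.57% of unnamed genes, and the median folds of both sets, set by the same thresholds, were 4.56. Raised unnamed genes were fewer. The mirrored rule, with the minimum RPKM required in the double mutant, found 63 of 3631 (1.74%). Whether these shares differ was not tested.

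The median protein length and exon number of the members were near those of other unnamed genes. Of the 132, 128 are annotated as protein-coding in WBcel235, with a median of 342 residues and 5.5 exons, against 337 residues and 5 exons for all unnamed genes past the minimums. The raised unnamed genes encoded shorter proteins, with a median of 227 residues. Proteins under 150 residues made up 15.6% of the members, 13.3% of all unnamed genes past the minimums and 24.2% of the raised unnamed genes. The range among the members went from 33 residues in K08D10.10 to 2229 in hrg-11.2.

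The members were unevenly spread over the chromosomes. Of the unnamed genes past the minimums, 5.83% on chromosome V (44 of 755) and 5.23% on chromosome IV (34 of 650) were members, but 0.679% on chromosome I (4 of 589) and 1.56% on chromosome III (9 of 577). Chromosomes II and X were in between, at 3.64% and 3.65%. Named lowered genes were likewise most frequent on V (8.03%) and raised unnamed genes too (3.41%), with 1.83% and 0.678% on I. On III the shares were 0.96% and 1.06%, so named lowered genes were rarest on III and not on I. The share on IV was 3.65% for named lowered genes and 1.42% for raised unnamed genes. Genes of a cluster are not independent of each other, and these shares were not tested.

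**Figure D5:**
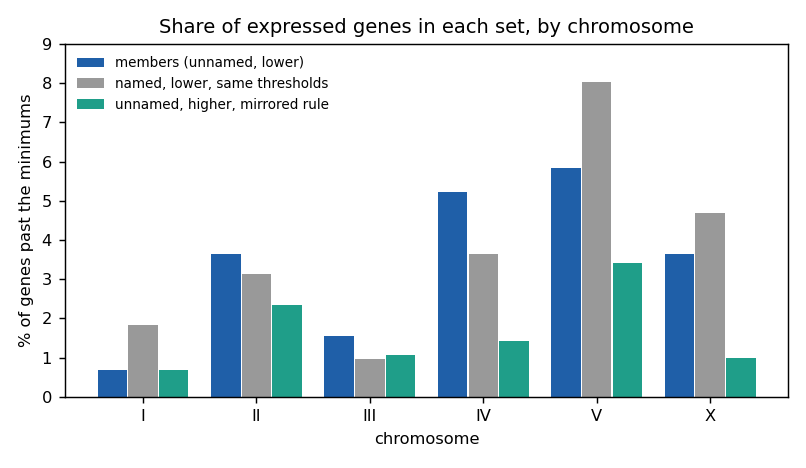
Share of genes past the minimums (percent, vertical, from 0) on each chromosome that belong to the lowered unnamed genes, the named genes lowered under the same thresholds, and the raised unnamed genes. All 3 sets are most frequent on chromosome V, at 5.83%, 8.03% and 3.41%.

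Markers of tissues moved with the members in part. Of 14 intestinal markers with an adjusted p, 9 were called lower and none higher by DESeq2 in the authors' deposited table, at a median log2 fold change of -1.15, and their summed RPKM went from 52872 in mes-1 to 34675 in the double mutant. They did not move as 1 block. The intestinal peptide transporter pept-1 had -3.93, the acid phosphatase pho-1 -3.67 and ifb-2 -3.49, while the intestinal GATA factor elt-2 had 0.06 and the esterase ges-1 0.37, neither called by DESeq2 in the authors' deposited table. Among the other somatic markers, none of 7 of muscle, 5 of the hypodermis, 10 of neurons, 4 of the pharynx and 3 of coelomocytes was lower, and 1 of 4 of the excretory cell was; 1 marker of muscle and 1 of neurons were higher. Median log2 fold changes were 0.15 for muscle, 0.04 for the hypodermis, 0.14 for neurons, 0.26 for the pharynx, 0.16 for coelomocytes and -0.68 for the excretory cell. The embryonic endoderm gene end-3 was at 0 in both genotypes.

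Of 12 germline markers, 6 had an adjusted p and 1, nos-2, was lower, with a summed RPKM of 67.3 in mes-1 and 26.6 in the double mutant. The nos-2 value rests mostly on the deepest mes-1 library, and cbd-1, puf-5 and rme-2, which make up much of the difference in the sum, have no adjusted p. All 6 sperm markers were under 1 RPKM in both genotypes, and msp-3 and msp-10 were at 0. Of 12 genes known to be lower when DAF-16 is active, 10 had an adjusted p and 9 of these were called lower by DESeq2 in the authors' deposited table, at a median of -1.94. The markers all have a name in the deposited table, so by the rule none of them could be a member. The part that tissue composition has in the members' levels was not tested. A span that overlaps a gene on the opposite strand was found for 21 members (15.9%), against 21.4% of all unnamed genes past the minimums. Reads from a stretch where exons of both genes overlap cannot be told apart. The spans include introns, and overlap of exons was not checked.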

How the data were processed

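RNA of 3 mes-1 and 3 daf-2; mes-1 samples was sequenced after depletion of ribosomal RNA, with a kit that gives no strand information, per the labels' protocols. Per the submitters' processing notes, TopHat2 and DESeq2 were used, and the file headers name Cuffdiff2, all without versions. Genome build and annotation: not given in the sources used here. The 1 table used has 5 value columns and none of a single sample. Its signal is the mean normalized count over the 6 samples, a DESeq2 value of the authors per the file headers. Its log2 fold changes (limited at 5) and its Benjamini-Hochberg adjusted p-values (limited at 1e-20, which 22 genes reached) are the authors' DESeq2 values per the file headers. RPKM of each genotype is the authors' Cuffdiff2 value per the file headers.

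The members were taken by the rule in the report, without C44B12.1 and C44B12.5. The members, lists and tests were chosen with earlier results of these data known. A gene was called at a deposited adjusted p under 0.05. No test was added. Standard errors were implied by inverting the Benjamini-Hochberg adjustment and dividing the size of the log2 fold change by the normal quantile. Reads per library were recovered from the 10 digits of the mean: the worth of 1 read in each library was read from the lowest means, and 3617 genes each had exactly 1 solution. For members with a mean under 30, a solution also had to match the RPKM ratio within a factor of 2, with fewer than 0.1 solutions expected by chance. No depth in reads is known, so the precision of RPKM values is known only through the implied standard errors.

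The genes named are the 12 members with the highest RPKM in mes-1, the 12 with the largest fall in RPKM, those with the smallest adjusted p (10 at its limit), the extremes of log2 fold change, runs of at least 3 neighbours and the 3 genes on each side of each threshold. Other examples, the 5 product groups and the sets of genes with a shared first part of the symbol were chosen after values were seen. Names, exons and protein lengths come from Ensembl and RefSeq tables of WBcel235, with no coordinate of that build used. The planned comparison of promoters and protein sequences was not made here. Computation used Python 3.11.15, pandas 2.3.3, numpy 2.4.6 and scipy 1.17.1.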

Additional observations from a re-analysis of the deposited data

How the results depend on the processing

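The number of members follows the thresholds. It was 79 with a pseudocount of 5, 324 with a fold of at least 2, 81 with a fold of at least 4 and 77 with a mean of at least 50. Members called lower by DESeq2 in the authors' deposited table were 77, 276, 78 and 76 under the same changes, and the median log2 fold change was -1.40 with a fold of at least 2 and -2.55 with a fold of at least 4. Members next to another member were 12 with a pseudocount of 5, 63 and 12 with the lower and higher fold, 32 with no minimum on the mean and 10 with a mean of at least 50. Leaving out genes that overlap another on the opposite strand left 111 members, 106 called lower and a median of -2.08. Without the pud genes, an alternative chosen after seeing the data, 121 were called lower with a median of -2.07. An adjusted p under 0.01 called 120 members, against 4.8% of all genes. No paired analysis was possible because the table has no values of single samples and the libraries recovered for some genes carry no replicate number, so a replicate block was not run, nor were the motif alternatives. Leaving out a library could be done only for the 11 members with recovered reads, and was added after seeing the data: their median level in mes-1, 23.5 normalized reads, was 21.99 to 27.9 without 1 mes-1 library, and that in the double mutant, 1.29, was 0.856 to 1.71 without 1 of its libraries.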

Other observations

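The minimum on the mean kept out 60 unnamed genes that met the other parts of the rule. Among these, 11 had an adjusted p and 7 were called lower by DESeq2 in the authors' deposited table. Reads in every library were recovered for 58 of the 60, and in 30 each double-mutant library lay below each mes-1 library. Among 1484 recovered genes with a mean of 5 to 10, 9.77% did so. Most of the 60 genes had a mean under 5, so the 2 sets differ in their range of the mean. These 60 genes were chosen for an RPKM at least 3-fold lower, so the count is a description, and 20 of them had at most 10 reads in all. The gene cld-1 (C32H11.9) had 25.2, 9.32 and 8.47 normalized reads in the deepest, middle and shallowest mes-1 libraries and 0 in each double-mutant library, with a DESeq2 adjusted p of 7.13e-05 in the authors' deposited table. In W05F2.3, drd-10 and C05C10.5 the mes-1 level rests on the deepest mes-1 library. W05F2.3 had 51.5, 2.33 and 0 in mes-1 and 4.34, 0.936 and 0 in the double mutant. It has no adjusted p. The deepest, middle and shallowest mes-1 libraries held 33.0, 1.16 and 0 normalized reads for drd-10 (C33G8.3) and 21.8, 1.16 and 0 for C05C10.5.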
